A study of Caenorhabditis elegans with 2 samples.

Results

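Divergent protein-coding promoters on the autosomes held 521 of the 30000 candidate regions found for the tagged transcription factor NHR-237 in the pooled replicates of a ChIP-seq study (sequencing of DNA recovered by chromatin immunoprecipitation). A candidate was counted here when its summit, the position of highest signal in the region, met 2 conditions. It lay on an autosome, and it was within the promoter windows of at least 2 protein-coding genes on opposite strands. A promoter window began 1000 bp before a gene's start and ended 100 bp after it. Positions alone chose the members, and no signal value entered the choice. A further 4556 autosomal candidates lay in such a window of genes on 1 strand and are called one-sided, and 18776 were other autosomal candidates. Together these made 23853 autosomal candidates. The samples were whole L3 larvae of Caenorhabditis elegans strain OP228, of pooled male and female worms, with genotype unc-119(ed3) III; wgIs228, where the insertion wgIs228 carries eGFP-tagged nhr-237. The promoter that drives it is not stated in the labels. There was 1 group of 2 biological replicates and no second condition, so the comparisons are between regions, and no test between groups could be made. In whole animals, binding in few cells and weak binding in many cannot be told apart.

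NHR-237 belongs to the nuclear hormone receptors, DNA-binding transcription factors of which many are regulated by small lipophilic ligands. Nematodes carry a greatly enlarged set of them. A divergent promoter lies between genes that are transcribed away from each other, so that a protein bound there sits upstream of both. In C. elegans many broadly expressed genes, among them genes for ribosomal proteins and histones, are arranged in this way. A summit in such a stretch cannot be assigned to 1 of the 2 genes from its position.

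Sequences of 3 members with high signal are shown first, because they share an element that no one-sided, other autosomal or X region of the pooled top 500 held. Each is the plus strand of ce11 (WBcel235), 201 bp centred on the pooled summit, 5′ to 3′. Each pair is named with its minus-strand gene first. Capitals mark TTGGC and GCCA with 5 bases between them. These letters were searched for after the sequences had been read.
drr-2/set-16 (chrIII:13643658-13643858): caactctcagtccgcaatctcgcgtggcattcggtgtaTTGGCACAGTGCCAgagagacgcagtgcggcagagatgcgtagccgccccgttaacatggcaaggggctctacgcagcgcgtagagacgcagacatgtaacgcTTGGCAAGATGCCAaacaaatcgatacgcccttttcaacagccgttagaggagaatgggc
nhl-2/tag-340 (chrIII:4899852-4900052): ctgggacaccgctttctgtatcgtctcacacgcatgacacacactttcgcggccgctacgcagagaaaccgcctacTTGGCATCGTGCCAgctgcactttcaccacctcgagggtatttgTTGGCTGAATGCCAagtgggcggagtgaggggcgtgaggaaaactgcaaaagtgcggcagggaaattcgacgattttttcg
sec-61.B/trap-3 (chrIV:2389018-2389218): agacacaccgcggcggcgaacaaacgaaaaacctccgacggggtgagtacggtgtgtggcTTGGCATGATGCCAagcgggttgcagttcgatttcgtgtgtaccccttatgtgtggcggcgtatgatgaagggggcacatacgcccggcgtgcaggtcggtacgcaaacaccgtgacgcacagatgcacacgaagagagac
The element occurred 2 times at drr-2/set-16, 2 times at nhl-2/tag-340 and 1 time at sec-61.B/trap-3. In textbook terms, the palindrome TTGGC, 5 bases, GCCAA is the site of nuclear factor I proteins. A match in these letters is a description and not a site.

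Sequences of 3 further members are shown for contrast, on the same strand, build and scale, and none of them held the spaced element. Here capitals mark the repeats GAGAGA and ACACAC and the GC-rich motifs AGCGCG and GGGCGG on either strand, merged where they overlap. The tim-1 window carried 1 GGGCGG and a run of overlapping repeats. The windows at rpl-20 and enpl-1 carried none of these 4 motifs.
rpl-20/Y17G9B.5 (chrIV:4749976-4750176): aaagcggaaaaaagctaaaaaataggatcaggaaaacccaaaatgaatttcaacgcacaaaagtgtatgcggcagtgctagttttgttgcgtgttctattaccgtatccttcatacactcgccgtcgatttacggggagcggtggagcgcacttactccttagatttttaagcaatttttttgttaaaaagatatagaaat
tim-1/Y75B8A.23 (chrIII:12250339-12250539): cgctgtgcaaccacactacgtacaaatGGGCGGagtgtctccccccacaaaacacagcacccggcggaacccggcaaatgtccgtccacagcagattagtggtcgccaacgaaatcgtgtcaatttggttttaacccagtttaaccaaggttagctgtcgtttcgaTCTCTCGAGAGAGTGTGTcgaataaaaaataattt
imp-2/enpl-1 (chrIV:11119010-11119210): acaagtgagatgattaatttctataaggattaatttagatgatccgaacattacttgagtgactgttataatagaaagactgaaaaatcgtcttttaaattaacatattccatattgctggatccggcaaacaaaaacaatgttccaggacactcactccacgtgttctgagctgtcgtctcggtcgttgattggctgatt

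Over the whole pooled list, candidates were about as dense at divergent promoters as elsewhere. Divergent promoter windows covered 1.69 Mb, or 2.05% of autosomal sequence. They held 308 candidates per Mb, against 297 per Mb at one-sided promoters and 287 per Mb in other autosomal sequence. Of the autosomal candidates, 2.18% were divergent. The median pooled signal of the members was 17.9, with a middle 50% of 15.5 to 21.6 and a range of 13.9 to 57.1. The median was 17.6 for one-sided and 17.5 for other autosomal candidates. Signal is the authors' own value for a region, with no SD, and its scale is not stated, so it is used here only within a list. The median pooled rank of the members, where rank 1 is the highest signal, was 14000, against 14924 for one-sided and 15240 for other candidates.

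The difference between the classes lay among the regions of highest signal. In the top 500 of the pooled list lay 22 of the 521 members, or 4.22% (exact 95% interval 2.66 to 6.32). The background over all 30000 candidates was 1.67%. The share was 1.89% for one-sided candidates (1.51 to 2.33) and 1.32% for other autosomal candidates (1.16 to 1.49). Intervals are Clopper-Pearson and cover counting error over regions only, and regions are not replicates. Per Mb of sequence, the top 500 held 13 regions at divergent promoters, 5.6 at one-sided promoters and 3.79 in other autosomal sequence, so that divergent sequence held 3.44 times the density of other sequence. Each replicate's own list gave a smaller ratio. Replicate 1 placed 7.69 of its top 500 regions per Mb in divergent sequence and 4.15 per Mb in other sequence, a ratio of 1.85. Replicate 2 placed 8.87 and 4.26 per Mb there, a ratio of 2.08. The direction was the same in all 3 lists, but in replicate 1 the interval for divergent sequence (4.09 to 13.1 per Mb) overlaps that for other sequence (3.67 to 4.68 per Mb), and the pooled list is made from the same replicates. With windows that begin 500 bp upstream, 7.61% of the then 197 members were in the pooled top 500 and the density ratio was 6.10.

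**Figure D1:**
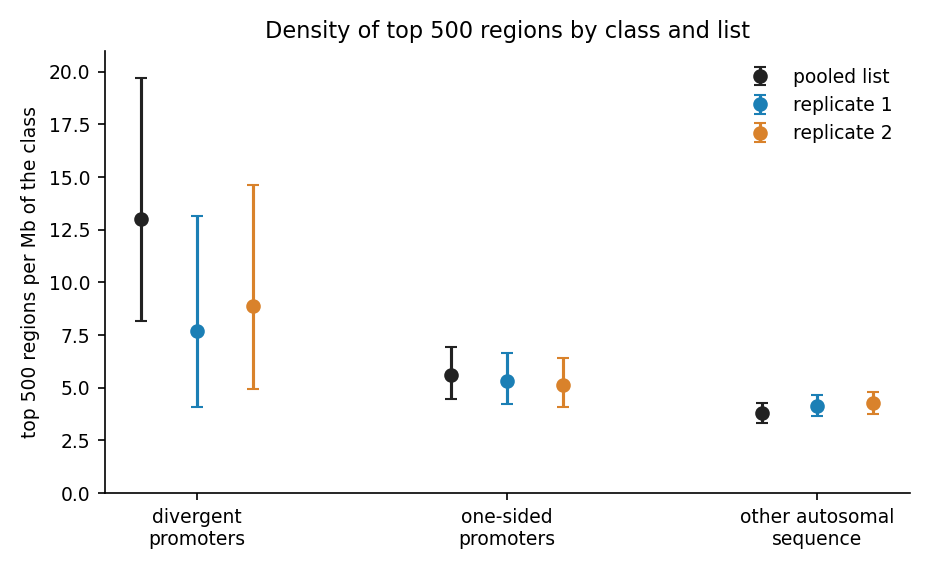
Top 500 regions per Mb of divergent promoter, one-sided promoter and other autosomal sequence, in the pooled list and in each replicate's own list, with exact 95% Poisson intervals over regions as bars. Divergent sequence has the highest point in every list (13, 7.69 and 8.87 per Mb), but in both replicates' lists its interval overlaps that of one-sided promoters, and in replicate 1 also that of other autosomal sequence.

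The divergent share of autosomal regions in the pooled list was higher the fewer top regions were taken. It was 6 of 58, or 10.3% (3.89 to 21.2), among the pooled top 100, 6.18% among the top 500, 4.76% among the top 1000 and 2.89% among the top 5000. Replicate 1 gave 4.92% (1.03 to 13.7) in its top 100, 3.54% (1.90 to 5.98) in its top 500, 3.77% (2.54 to 5.37) in its top 1000 and 2.73% (2.24 to 3.30) in its top 5000. Replicate 2 gave 5.80% (1.60 to 14.2), 4.02% (2.27 to 6.55), 3.15% (2.03 to 4.66) and 3.01% (2.50 to 3.59) at the same limits. Replicate 1 was thus not ordered between its top 500 and top 1000. All these shares lay above the 2.05% of sequence that is divergent, but the intervals of both top 100 lists, of the top 500 of replicate 1 and of the top 1000 of replicate 2 include it.

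A list of 48 pooled regions past an irreproducible discovery rate (IDR), a measure of how well ranks agree between lists, contained 2 of the 521 members, or 0.384% (0.0465 to 1.38). The background over all candidates was 0.16%. One-sided candidates gave 12 regions, or 0.263%, and other autosomal candidates gave 8, or 0.0426%. The count of 2 is too small to set the divergent share apart from that of one-sided candidates or from the background. Its interval overlaps that of one-sided candidates (0.136 to 0.46) and includes their 0.263% and the 0.16%. The 0.0426% of other autosomal candidates lies just below its lower limit of 0.0465, but their interval (0.0184 to 0.0839) overlaps it. With 2 regions, that difference is uncertain.

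The member of highest signal lay between rpl-20 (WBGene00004432), a protein of the large ribosomal subunit, and Y17G9B.5 (WBGene00021202). The region spanned chromosome IV 4749901 to 4750250. Its signal was 57.1 at pooled rank 30, and it was 33.0 at rank 31 in replicate 1 and 19.6 at rank 279 in replicate 2. Both replicates placed it in their top 500, replicate 1 higher than replicate 2. The starts lie 462 bp apart, and the summit fell 298 bp upstream of rpl-20 and 164 bp upstream of Y17G9B.5.

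The second member on the IDR list lay between drr-2 (WBGene00011730), which encodes a translation factor related to eIF4H, and set-16 (WBGene00011729), a histone H3 lysine 4 methyltransferase of the MLL type. It spanned chromosome III 13643583 to 13643932 with a signal of 54.8 at pooled rank 33. Replicate 1 gave 27.8 at rank 43 and replicate 2 gave 25.8 at rank 35. It was the divergent candidate with the closest ranks in both replicates among the 4 in both top 500 lists. The starts lie 346 bp apart, and the summit fell 188 bp upstream of drr-2 and 158 bp upstream of set-16, within 15 bp of the midpoint. GC content of the printed window was 56.2%, and that of the rpl-20 window was 38.3%.

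The first member outside the IDR list was rps-20/ekl-4, with a signal of 41.4 at pooled rank 56, where the region at rank 48 had 42.8. It joins a small-subunit ribosomal protein gene with a homologue of the chromatin factor DMAP1. Replicate 1 gave 20.7 at rank 245 and replicate 2 gave 19.5 at rank 287. Both ranks lay within the top 500 of their lists.

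Besides these 3, nhl-2/tag-340 was in the top 500 of both replicates, which makes 4 members, or 0.768% of 521 (0.210 to 1.95). The same held for 14 one-sided candidates (0.307%) and 11 other autosomal candidates (0.0586%). The background over all candidates was 50 of 30000, or 0.167%. The interval of the members includes the one-sided share, so the 4 members do not set these 2 classes apart. nhl-2 encodes a TRIM-NHL protein that acts as a cofactor of microRNAs. The pooled signal at nhl-2/tag-340 was 39.0 at rank 75, with 20.4 at rank 277 in replicate 1 and 21.3 at rank 138 in replicate 2. The starts there lie 1423 bp apart, the widest gap of the 22, and the non-coding gene F26F4.14 lay 2 bp from the summit. The replicates' summits lay more than 100 bp from each other and each within 100 bp of the pooled one.

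**Figure D2:**
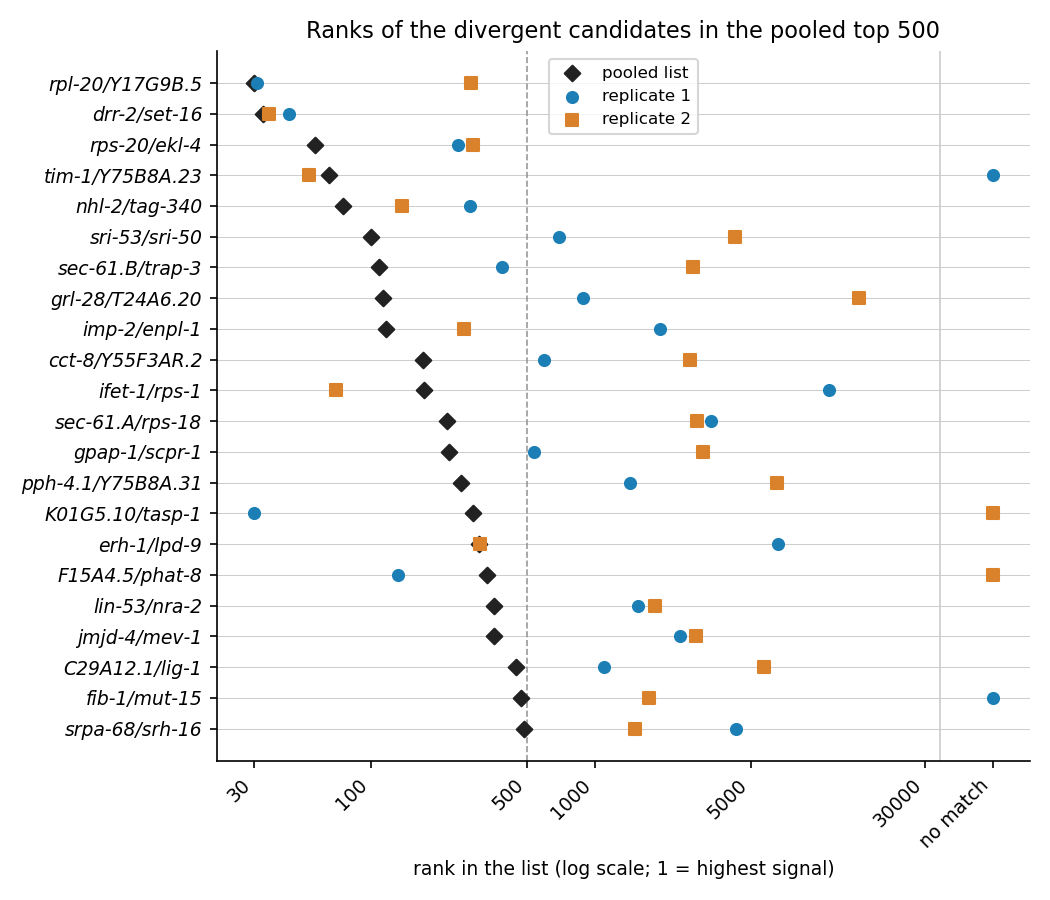
Rank of each of the 22 divergent candidates of the pooled top 500 in the pooled list, in replicate 1 and in replicate 2, on a log axis, with candidates that had no replicate summit within 100 bp at the right edge. Only 4 members have all 3 points left of the dashed line at rank 500, and 4 lack a match in 1 replicate.

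The next pairs were among the 12 members of highest pooled signal. sec-61.B/trap-3 joins a subunit of the translocon with a translocon-associated protein. Its pooled signal was 36.4 at rank 109, with 19.5 at rank 385 in replicate 1 and 14.4 at rank 2742 in replicate 2. sec-61.A/rps-18 joins another translocon subunit with a small-subunit ribosomal protein. It had 33.6 at pooled rank 219, 14.2 at rank 3316 in replicate 1 and 14.3 at rank 2850 in replicate 2. imp-2/enpl-1 joins a protease of the signal peptide peptidase family with the endoplasmic reticulum chaperone of the Hsp90 family. It had 36.2 at pooled rank 117, 15.5 at rank 1966 in replicate 1 and 19.8 at rank 260 in replicate 2. Each of these pairs had a match in both replicates, and none of them was in the top 500 of both.

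Replicates differed more for some of the remaining named pairs than for others. ifet-1/rps-1 holds a homologue of the eIF4E transporter and a small-subunit ribosomal protein. Its pooled signal was 34.5 at rank 172, with 10.9 at rank 11087 in replicate 1 and 23.1 at rank 70 in replicate 2. Its place in the pooled list thus came with a high rank in replicate 2 and a low one in replicate 1. cct-8/Y55F3AR.2, with a subunit of the cytosolic chaperonin, had 34.5 at pooled rank 171, 18.3 at rank 594 in replicate 1 and 14.5 at rank 2666 in replicate 2. lin-53/nra-2 pairs a histone-binding protein of the RbAp48 type with a homologue of nicalin. It had 31.9 at pooled rank 353, 16.1 at rank 1555 in replicate 1 and 15.3 at rank 1853 in replicate 2. jmjd-4/mev-1 pairs a Jumonji-domain protein with the cytochrome b subunit of respiratory complex II. It had 31.9 at pooled rank 354, 15.0 at rank 2415 in replicate 1 and 14.4 at rank 2826 in replicate 2. For lin-53/nra-2 and jmjd-4/mev-1 the replicates differed little in rank, and both were outside their top 500.

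The 12 members of highest signal also held genes of large nematode families. sri-53/sri-50 is a pair of chemoreceptor genes and had 36.8 at pooled rank 100, with 17.9 at rank 691 in replicate 1 and 13.4 at rank 4210 in replicate 2. grl-28, which encodes a ground-like domain protein, and T24A6.20 had 36.3 at pooled rank 113. Replicate 1 gave 17.4 at rank 889 there, and replicate 2 gave 9.72 at rank 15189. Both pairs ranked higher in replicate 1.

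In 4 of the 22, 1 replicate had no summit within 100 bp. tim-1/Y75B8A.23, with the worm homologue of Timeless, had a pooled signal of 40.5 at rank 65 and 23.9 at rank 53 in replicate 2, and no match in replicate 1. The spliced leader RNA gene sls-2.8 lay 26 bp from its summit. K01G5.10/tasp-1, where tasp-1 is named for the protease taspase, had 32.7 at pooled rank 286 and 33.5 at rank 30 in replicate 1, the highest divergent region of that list, with no match in replicate 2. F15A4.5/phat-8 had 32.1 at pooled rank 331 and 22.4 at rank 132 in replicate 1 alone. fib-1/mut-15, with the nucleolar protein fibrillarin and a protein of mutator foci, had 30.9 at pooled rank 470 and 15.5 at rank 1750 in replicate 2 alone. For these 4, the pooled rank stands beside a matched summit in 1 replicate only.

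The share of members matched in both replicates was close to that of all candidates. A replicate 1 summit lay within 100 bp of 53.0% of members (48.6 to 57.3), against 53.4% of all candidates. A replicate 2 summit lay within 100 bp of 56.4% of members (52 to 60.7), against 51.1% of all candidates, a value outside the interval of the members. Both replicates matched 112 members, or 21.5% (18 to 25.3), and the background over all candidates was 20.5%. One-sided candidates gave 20.3% and other autosomal candidates 20.1%. Neither replicate matched 63 members, or 12.1% (9.42 to 15.2), against 15.5% of one-sided, 16.6% of other autosomal and 16% of all candidates. Among the pooled top 500, both replicates matched 18 of 22 members (81.8%), 72 of 86 one-sided regions (83.7%) and 201 of 248 other autosomal regions (81.0%). The members were thus matched about as often as other regions of the same rank. Over the 112 members matched in both, which share the authors' processing, Pearson's r of the replicates' signal was 0.46 and Spearman's rho 0.356, given as a description across regions.

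Applied to each replicate's own list, the rule found 528 divergent regions in replicate 1 and 560 in replicate 2. Of these, 112 matched directly, which is 21.2% of replicate 1 and 20% of replicate 2. The top 500 of replicate 1 held 13 divergent regions and that of replicate 2 held 15, and 3 of them matched directly, which is 23.1% and 20%. Of all regions in the top 500 of a replicate, 47, or 9.4% (6.99 to 12.3), had such a match, so overlap was low for regions in general. It was 17.1% for one-sided and 3.31% for other autosomal regions of replicate 1, and the interval for the divergent regions there (5.04 to 53.8) includes the 9.4%. The highest divergent region of replicate 2 was rpl-15/K11H12.8, where rpl-15 encodes a large-subunit ribosomal protein, with 26.4 at rank 29. It had no match in replicate 1 and stood at pooled rank 2458 with a signal of 25.2.

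Members were spread over 500 nearest pairs of genes. A single member lay at 480 pairs, 2 members at 19 pairs and more at 1 pair. They involved 1009 of the 5261 autosomal genes whose windows meet an opposite-strand window, or 19.2%. The autosomes held 2869 such pairs, of which 2833 diverge and 36 overlap. Of the 521 members, 520 lay at diverging starts and 1, rpb-7/Y54E10BR.2, at starts that overlap. Chromosome V held 170 members, or 352 per Mb of its divergent sequence. Chromosome II held 102 (320 per Mb), chromosome IV 92 (294 per Mb), chromosome I 79 (261 per Mb) and chromosome III 78 (285 per Mb). Members were 2.7% of all candidates on chromosome V, 2.19% on II, 2.02% on III, 1.92% on I and 1.88% on IV. Over all autosomes the share was 2.18%. Of the 22 members of the top 500, 7 lay on chromosome III, 5 each on IV and V, 3 on I and 2 on II. The top 500 as a whole was not split by chromosome, so these counts have no background.

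The summits were spread over the divergent sequence. They lay between both starts in 419 members, or 80.4%, and 80.4% of the divergent sequence itself lies between the starts. The nearer start was a median of 158 bp away and the farther start 599 bp. The median gap between the starts was 766 bp, with a middle 50% of 494 to 1083 bp and a range of 20 to 1906 bp. All diverging pairs in the genome, each counted once, had a median of 785 bp.

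**Figure D3:**
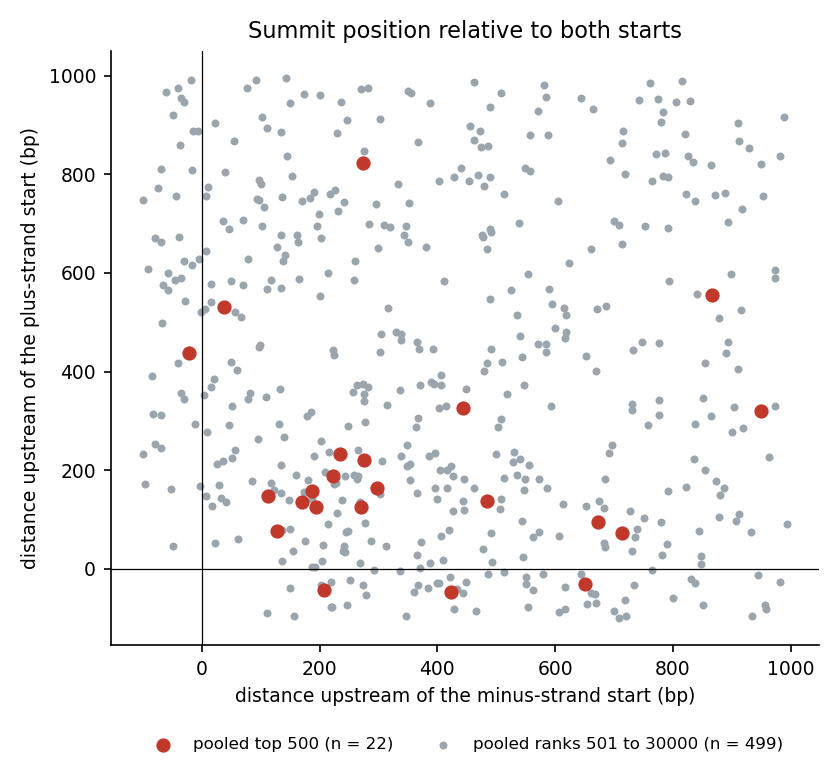
Distance of each member's summit upstream of its minus-strand start and of its plus-strand start in bp, where negative values are downstream, for the 22 members in the pooled top 500 and the 499 others. The 499 fill the allowed square, and 12 of the 22 lie within 500 bp upstream of both starts.

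The pooled top 500 members stood at closer starts than the other members. Their median gap was 464.5 bp, against 778 bp for the 499 members of lower rank. The starts were under 500 bp apart for 13 of 22, or 59.1% (36.4 to 79.3), against 120 of 499, or 24% (20.4 to 28). All diverging pairs in the genome, each counted once, gave 31.4%. Members count summits, and pairs differ in how much sequence they offer, so that value is not the share expected for summits. Within 500 bp upstream of both starts lay 12 of 22 summits (54.5%), against 28.3% of the 499. The replicates' own lists gave different values on small counts. In the top 500 of replicate 2, 9 of 15 divergent regions (60%, interval 32.3 to 83.7) had starts under 500 bp apart, and in the top 500 of replicate 1, 4 of 13 (30.8%, interval 9.09 to 61.4). The interval of replicate 1 includes both the 59.1% of the pooled list and the 31.4% of all diverging pairs. Below rank 500 the shares were 26.1% in replicate 2 and 28.3% in replicate 1. The median gap was 462 bp in the top 500 of replicate 2, against 758 bp below it. In replicate 1 it was 741 bp, against 719 bp below, so that list did not show closer starts in its top 500.

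**Figure D4:**
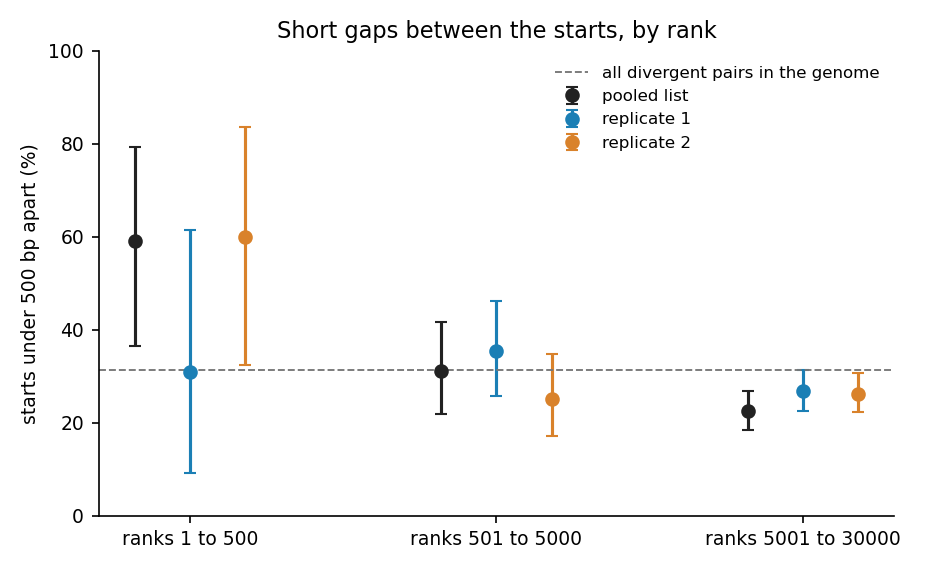
Share of divergent regions whose starts are under 500 bp apart, by rank in the pooled list and in each replicate's list, with exact 95% intervals as bars. A dashed line marks 31.4%, the share of all diverging pairs, each counted once, which is not the share expected for summits. At ranks 1 to 500 the pooled list and replicate 2 lie near 60% and replicate 1 at 30.8%.

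Ribosomal protein genes had a divergent candidate more often than the average gene in all 3 lists. Of 79 autosomal genes for cytosolic ribosomal proteins, 53 are in divergent pairs (67.1%, against 30.5% of all protein-coding genes). A member lay at 19 of the 53, or 35.8% (23.1 to 50.2), against 19.2% of all genes in such pairs. Replicate 1 gave 17 genes (32.1%) and replicate 2 gave 18 (34%), against 19.4% and 20.6% of all genes. The 20 members at these genes had a median pooled rank of 6105. The genes rpl-20, rps-20, rps-1 and rps-18 were in the pooled top 500, which is 7.55% of the 53, against 0.836% of all genes. Replicate 1 had 3 ribosomal protein genes in its top 500 and replicate 2 had 4, against 27 and 31 of all 5261 genes in such pairs. Only 9 ribosomal protein genes had a divergent region in the lists of both replicates, so the replicates' shares rest partly on different genes. Of all genes in such pairs, 386 were in both lists. Earlier results of these data had already named ribosomal protein promoters, so the list is not independent evidence.

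Cuticle collagens, structural proteins of the worm's exoskeleton, gave 11 of 39 genes (28.2%, interval 15.0 to 44.9), and 30.8% in each replicate. None of them was in the pooled top 500, and the highest, col-114 with D2024.1, stood at pooled rank 1560. RNA polymerase and transcription factor subunits gave the highest share of the lists with at least 20 genes in divergent pairs, 11 of 21 (52.4%, interval 29.8 to 74.3). The replicates gave 38.1% and 23.8%, and none of its members was in the pooled top 500. The highest, pqn-59/taf-4 with a subunit of TFIID, stood at pooled rank 661, with 15.7 at rank 1831 in replicate 1 and 13.8 at rank 3576 in replicate 2. Genes of mitochondrial respiration gave 7 of 25 (28%), with 28% in replicate 1 and 12% in replicate 2. The shares of the last 2 lists thus depended on which list of regions was used. The intervals of the collagens and of mitochondrial respiration include the 19.2% of all genes.

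Core histones were at the low end. Of 64 core histone genes in divergent pairs, 3 had a member (4.69%, interval 0.977 to 13.1), with 3.12% in replicate 1 and 10.9% in replicate 2. These genes are near-identical copies, and reads between them may have been lost or split by the authors' alignment, which was not tested. his-67/his-68 had 27.6 at pooled rank 1289, with 9.82 at rank 15816 in replicate 1 and 19.0 at rank 360 in replicate 2. mdf-1/his-41 had 20.2 at pooled rank 8531, with no match in replicate 1. The small heat shock genes hsp-16.2 and hsp-16.41, a divergent pair known for induction by heat, had 1 member with 24.1 at pooled rank 3257. It ranked 5675 in replicate 1 and 27792 in replicate 2, and 2 of the 6 hsp-16 genes were at a member.

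All lists below had intervals that include the 19.2% of all genes. Nuclear hormone receptors, the family of the tagged protein, gave 7 of 45 (15.6%), and the highest, nhr-90 with srlf-36, stood at pooled rank 8956. That region was at rank 281 in replicate 1 with a signal of 20.35 and had no match in replicate 2. Cytochrome P450 genes gave 0 of 15, which allows up to 21.8%. Glucuronosyl and glutathione transferases gave 4 of 33, and lipid metabolism 2 of 17, both at acdh-12/maoc-1 (pooled rank 1143). Innate immunity gave 16 of 95, F-box and MATH proteins 18 of 115, and neuropeptides and insulins 5 of 14. Homeobox genes gave 4 of 9, cell cycle and DNA replication genes 6 of 32, and ubiquitin conjugation genes 5 of 22. Translation factors gave 2 of 22, aminoacyl-tRNA synthetases 4 of 15 and mitochondrial ribosomal proteins 5 of 30. Chaperones gave 5 of 27, the proteasome 2 of 24, splicing 5 of 30, the vacuolar ATPase 2 of 8, and nuclear pore and transport genes 5 of 25. Differences from all genes were not detectable at these numbers of genes.

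**Figure D5:**
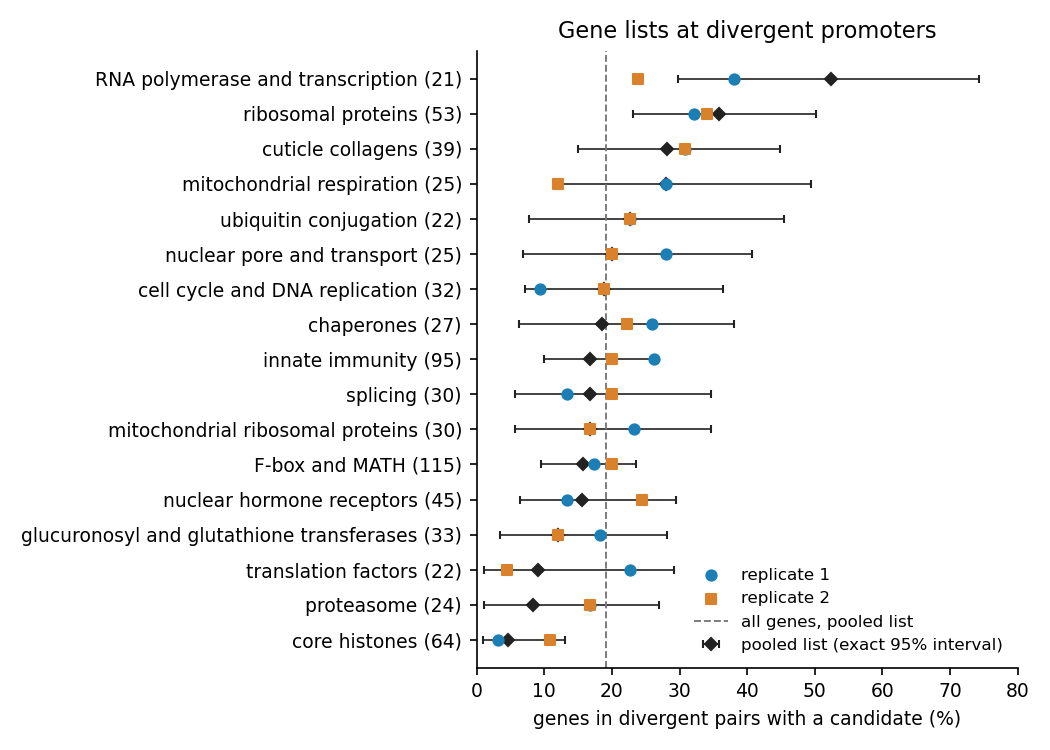
Share of the genes in divergent pairs that have a divergent candidate, for the 17 lists with at least 20 such genes (number in brackets), in the pooled list with its exact 95% interval and in each replicate's list, with a dashed line at the 19.2% of all genes. Ribosomal proteins lie right of the line in all 3 lists (35.8%, 32.1% and 34%), and core histones lie left of it in all 3.

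Members in the pooled top 500 were richer in G and C. Their 201 bp windows averaged 41.6 ± 8.10% GC (SD over 22 regions), against 36.1 ± 6.02% in the 499 others. Top 500 regions averaged 38.6 ± 7.14% at one-sided promoters and 38.7 ± 6.53% in other autosomal sequence. The divergent regions in the top 500 of replicate 1 averaged 41.2 ± 10.1% and those of replicate 2 averaged 42.5 ± 8.09%. The groups' ranges of 1 SD overlap, which describes the scatter of single regions and not the uncertainty of the means. Whether the means differ was not tested. Over all 521 members GC was 36.3 ± 6.21%.

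AGGTCA, the core recognition motif of many nuclear receptors, was about as frequent at the members as in other windows. It occurred within 100 bp of 31 of 521 summits (5.95%), counting both strands, against 5.55% at one-sided and 4.86% at other autosomal summits. Windows of the same length centred between the starts of all 2833 diverging pairs gave 5.26%. In the pooled top 500 it was found at 1 of 22 members.

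Some GC-rich and repeat motifs were more frequent among the top 500 members than among the others, on small counts. AGCGCG, which shares letters with the motif GCGCGA, was at 5 of 22 (22.7%, interval 7.82 to 45.4), against 21 of 499 (4.21%, 2.62 to 6.36). In the top 500 it was found in 8.14% of one-sided and 3.63% of other autosomal regions. Over all members it was 4.99%, against 2.28% at one-sided and 1.82% at other summits, but 5.82% of all diverging pairs carried it. The divergent summits thus carried AGCGCG no more often than the middle of diverging pairs in general. CTGCGTC, 1 of the 15 motifs counted, was more frequent, at 4.99% of members (3.29 to 7.23) against 2.61% of all diverging pairs (2.06 to 3.27). It was at 2.88% of one-sided and 1.64% of other summits. Over all members ACACAC was at 9.40% (7.04 to 12.2), against 6.64% of all diverging pairs (5.75 to 7.62). GAGAGA was at 7 of 22 (31.8%, interval 13.9 to 54.9), against 12% of the 499. In the top 500 it was found in 29.1% of one-sided and 19% of other autosomal regions, both within that interval. ACACAC was at 6 of 22 (27.3%, interval 10.7 to 50.2), against 8.62% of the 499. The top 500 shares were 16.3% for one-sided and 11.3% for other autosomal regions, both within that interval. GGGCGG was at 4 of 22 (18.2%, interval 5.19 to 40.3), against 5.61% of the 499 and 4.80% of all diverging pairs. The 5.61% lies within that interval. For this motif the top 500 shares were 4.65% for one-sided and 4.84% for other autosomal regions. Some motifs went the other way, each with 1 of 22 (4.55%, interval 0.115 to 22.8). TATAAA was found in 26.3% of the 499, and in the top 500 in 18.6% of one-sided and 14.9% of other autosomal regions. The motif AGTTCA was found in 14% of the 499. The motif TGATAA was found in 18.4% of them, and the motif TTCNNGAA in 12%. Only the 26.3% lies outside the interval of the top 500 members. The motifs named here were picked from the 15 counted. GC content moves with these counts, and its part in them was not tested.

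The spaced element shown in the first sequences was at 4 of the 22 members in the pooled top 500 (18.2%). The 4 were drr-2/set-16, nhl-2/tag-340, sec-61.B/trap-3 and pph-4.1/Y75B8A.31, where pph-4.1 encodes a catalytic subunit of protein phosphatase 4. The pph-4.1 region stood at pooled rank 252, at rank 1434 in replicate 1 and at rank 6534 in replicate 2. In the same top 500 the element was at 0 of 86 one-sided, 0 of 248 other autosomal and 0 of 144 X regions. Over all ranks it was at 13 of 521 members (2.50%), 0.373% of one-sided, 0.325% of other autosomal and 0.195% of X candidates. Both counts of members include the 3 printed regions from which the element was picked, so these contrasts are partly set by that choice. Below rank 5000, where none of the printed regions lay, it was at 7 of 409 members (1.71%, interval 0.691 to 3.49). One-sided candidates there gave 0.366% (0.2 to 0.614) and other autosomal candidates 0.305% (0.225 to 0.404). The element was at 31 of 2833 midpoints of diverging pairs, or 1.09% (0.745 to 1.55). That value lies within the interval of the members below rank 5000. The longer palindrome, ending in GCCAA, was at 3 of the 22 and at 6 of the 521.

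Counts in the replicates' own lists are largely the same regions again and add little. In the top 500 of replicate 1 it was at 3 of 13 divergent regions, which are the 3 printed above, and at 0 of 82 one-sided, 0 of 272 other autosomal and 0 of 133 X regions. In the top 500 of replicate 2 it was at 3 of 15 divergent regions, and at 0 of 79 one-sided, 1 of 279 other autosomal and 0 of 127 X regions. Of the replicate 2 regions, drr-2/set-16 and nhl-2/tag-340 are printed above, and rpl-15/K11H12.8 is not. Because the element was picked from these sequences, no test was made of it.

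Non-coding genes lay near some of the top members. Piwi-interacting RNA genes and pseudogenes were not counted. A non-coding gene lay within 500 bp of 5 of 22 summits in the top 500 (22.7%, interval 7.82 to 45.4), against 58 of 499 others (11.6%). In the top 500 the share was 18.6% at one-sided promoters and 12.5% in other autosomal sequence. At sec-61.B/trap-3 the summit lay inside Y38F2AR.17 and 21 bp from Y38F2AR.16, and at ifet-1/rps-1 it lay 41 bp from F56F3.10. At cct-8/Y55F3AR.2 the nearest was Y55F3AR.4 at 195 bp. The part of these genes in the signal was not tested. Without members that have such a gene within 500 bp, 3.71% were in the pooled top 500, and without members at ribosomal protein genes, 3.59%, both within the interval of the full set.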

How the data were processed

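The deposited lists give, per the submitters' file lists, regions of peaks and background for each replicate and for the pooled replicates, against a control library not analysed here, and regions past an IDR threshold. Signal values are the deposited ones, as the authors' processing gave them. Neither the aligner nor the peak caller, versions, IDR threshold or read number is stated in the labels or file lists, and depth is unknown. Each list stops at 30000 regions, whatever their quality, and 29999 of the pooled regions are 350 bp wide. Fragments were 150 to 350 bp per the labels. The ce10 lists were not used.

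Summits were classed by starts of Ensembl release 115 genes on WBcel235, which is ce11, 1 start a gene. Replicate summits within 100 bp were matched. Shares of 24 gene lists and 15 motifs (201 bp windows, both strands) were counted with exact 95% intervals, and densities per Mb of each class. Members and lists were chosen with earlier results of these data known. Named members were those on the IDR list, the 12 of highest pooled signal, the 8 best matched in both replicates, up to 2 a gene list, histone and hsp-16 pairs, and 4 of the top 500 with the lowest or no replicate rank. Others named were chosen after their values were seen. No test was made, because there is 1 group. Windows, starts, match distance, replicate lists and rank limits were varied. Classing and matching were tested on simulated starts and summits. Python 3.11.15, numpy 2.4.6, pandas 2.3.3, scipy 1.17.1 and matplotlib 3.10.9 were used.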

Additional observations from a re-analysis of the deposited data

How the results depend on the processing

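Of 52 alternatives, 38 stayed within the 95% interval, the spread of the replicates or, for counts, 1.5 times the value. Some of these had little scope to move. The IDR regions are themselves pooled regions, and their share stayed at 0.384% at each match distance. Keeping only diverging starts left 520 of the 521 members. With 500 bp upstream the IDR share was 1.015%, inside a wide interval that rests on 2 regions. The number of members was 197 with windows of 500 bp upstream, 1331 with 2000 bp, and 112 within the top 5000, where density was 66.2 per Mb. With 500 bp upstream, 7.61% of members were in the pooled top 500, 29.95% were matched in both replicates, the median rank was 11818 and the top 500 density ratio 6.10. Matching within 50 bp gave 15.2% in both replicates and within 250 bp 37.0%. The share in the top 500 was 2.46% to 2.68% in the replicates' own lists, and the density ratio 1.85 to 2.08. The share of short gaps was 30.8% to 60%. The cause of these shifts was not tested, except that wider windows and distances take in more summits by construction. For single motifs, 28 of 30 shares left their interval with windows of 50 or 250 bp on each side.

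No paired analysis was possible because there is 1 group. The replicates' lists rank different regions highly, so ranks of single members are less certain than their pooled rank alone shows. Alternatives on replicate lists, ribosomal and non-coding genes for the top 500 results, and the spaced element, were chosen after seeing the data. Depth is unknown, and an absent region is not evidence of absent binding.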
